A study of Canis lupus familiaris with 58 samples.

Results

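Germinal centre identity genes were followed across B-cell lymphomas of 58 dogs. The set held 10 genes: BCL6, MEF2B, LMO2, MYBL1, MME, ITPKB, KLHL6, BCL7A, MAML3 and ELL3. They were chosen by name, as genes whose expression marks B cells of the germinal centre, and the naming rule used no measured value, although earlier results of these data were known when the set was drawn up. All 10 were among the 15115 genes that the array named by a single symbol, and each was read from 1 probe set, the group of short probes that measures a transcript. LMO2 alone had 2 such probe sets, and the brighter was used. The probe sets of BCL6, MME and MEF2B were of a design that can match several transcripts.

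RNA was taken from pet dogs before treatment and hybridised to Affymetrix canine arrays, 1 array per dog. Lymph node tissue of 39 dogs comprised 32 diffuse large B-cell lymphomas (DLBCL, a fast-growing form) and 7 marginal zone lymphomas (MZL, a usually slower form), while fine needle aspirates of 19 dogs had an unknown diagnosis. By mutation of IGHV, the variable gene of the antibody heavy chain, tumours were static in 26 dogs, ongoing in 27 and ND, which the labels leave unexplained, in 5. Static and ongoing tumours numbered 18 and 12 among lymph node DLBCL, 1 and 4 among lymph node MZL, and 7 and 11 among aspirates.

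Germinal centres are structures in lymphoid follicles in which activated B cells divide, mutate their antibody genes and are selected for affinity. BCL6 holds cells in this state by repressing genes of cell cycle arrest, DNA damage response and plasma cell differentiation, and other members of the set act on the same program as activators, chromatin factors or signalling enzymes. In human DLBCL, genes of this kind are used to recognise tumours that resemble germinal centre B cells, and ongoing mutation of IGHV is a trait of that stage.

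The deposited values were log2 expression levels, so a difference of 1 is a doubling. Array medians lay between 7.08 and 7.20. The array least like the others, the aspirate ongoing 7, had a mean correlation of 0.941 with them, and the next, the aspirate static 20, one of 0.952. Control probe sets for GAPDH and ACTB showed a 3' minus 5' difference, a measure of RNA integrity, above 1 in 2 arrays, ongoing 7 (1.95) and the lymph node DLBCL static 19 (3.77). B-cell identity was checked with MS4A1, which encodes CD20 and had a median of 12.7 in both specimen types. Its lowest level was 6.96, in 1 lymph node tumour, against 10.9 for the lowest aspirate. Lowest levels in aspirates and lymph node were 6.37 and 6.71 for CD79A, 7.98 and 8.41 for CD79B, and 7.77 and 6.63 for CD22. Medians of these B-cell markers in the same order were 9.04 and 8.53, 11.45 and 10.63, and 8.96 and 8.17. CD3D, a T-cell marker, had medians of 13.03 and 13.06. The B-cell share of single samples was not measured. All samples were bulk tissue, in which fewer cells of a type and less RNA per cell cannot be told apart.

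Among the transcription regulators, BCL6, the repressor that gives the program its centre, varied most from tumour to tumour. Its level ran from 7.45 in static 5 through a median of 8.82 to 11.58 in ongoing 2, a 17.5-fold range, and its SD of 0.81 was at percentile 96.8 among all 15115 genes, whose median SD was 0.25. SDs of members are over all arrays. Percentiles and the median of 0.25 are of SDs after means of specimen and diagnosis groups were removed. LMO2, a LIM-domain scaffold that bridges other DNA-binding factors, ran from 9.93 in static 11 through 12.01 to 13.05 in ongoing 2 (SD 0.51, percentile 87.6). The lowest LMO2 tumour stood apart, since the next lowest, static 12, was at 11.08. MEF2B, a MADS-box factor that activates BCL6 in germinal centre cells, ran only from 5.42 to 6.69 (SD 0.20, percentile 38.6). MYBL1, a Myb family factor of dividing germinal centre cells, ran from 6.57 to 7.73 (SD 0.19, percentile 33.4).

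Of the surface and signalling members, KLHL6, a substrate adaptor of a ubiquitin ligase needed for germinal centre formation, had a 14.0-fold range. It ran from 5.68 in ongoing 7 through a median of 6.73 to 9.49 in static 3 (SD 0.62, percentile 92.9). Only static 3 and ongoing 2 (8.90) exceeded 7.67, the level of the third highest tumour, static 22. Both of the lowest KLHL6 values, 5.68 in ongoing 7 and 5.73 in static 20, came from the 2 arrays least like the others. MME, the cell surface metalloprotease CD10, ran from 5.54 through 6.12 to 7.63 (SD 0.32, percentile 63.3). Its highest values, 7.63 in ongoing 16 and 7.02 in ongoing 7, were both from aspirates, and ongoing 7 was the array least like the others. ITPKB, the kinase that converts inositol trisphosphate and dampens signalling below the B-cell receptor, ran only from 6.34 to 7.23 (SD 0.16, percentile 19.4).

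The remaining members act in chromatin and transcription. ELL3, an RNA polymerase II elongation factor of B cells and testis, had a 10.2-fold range from 8.43 in ND 4 through 10.30 to 11.77 in static 7 (SD 0.75, percentile 96.0). BCL7A, a subunit of SWI/SNF chromatin remodelling complexes, ran from 5.09 in static 19 through 5.98 to 7.14 in ongoing 23 (SD 0.38, percentile 75.4). Its lowest value came from the array with the highest 3' minus 5' difference, and across 58 arrays BCL7A and that difference had r = -0.44 (-0.34 without the 2 arrays above 1). The part of RNA integrity in the BCL7A values was not tested beyond the fits without those arrays. MAML3, a mastermind-like coactivator of Notch, was the flattest member, from 6.88 to 7.58 (SD 0.14, percentile 6.93). BCL6, ELL3, KLHL6 and LMO2 thus had the widest spread in the set, while ITPKB and MAML3 differed by less than 1 on the log2 scale between the highest and lowest of 58 tumours. By mean level, MME (6.18), BCL7A (5.97) and MEF2B (5.79) lay in the lowest 25% of all genes.

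**Figure D1:**
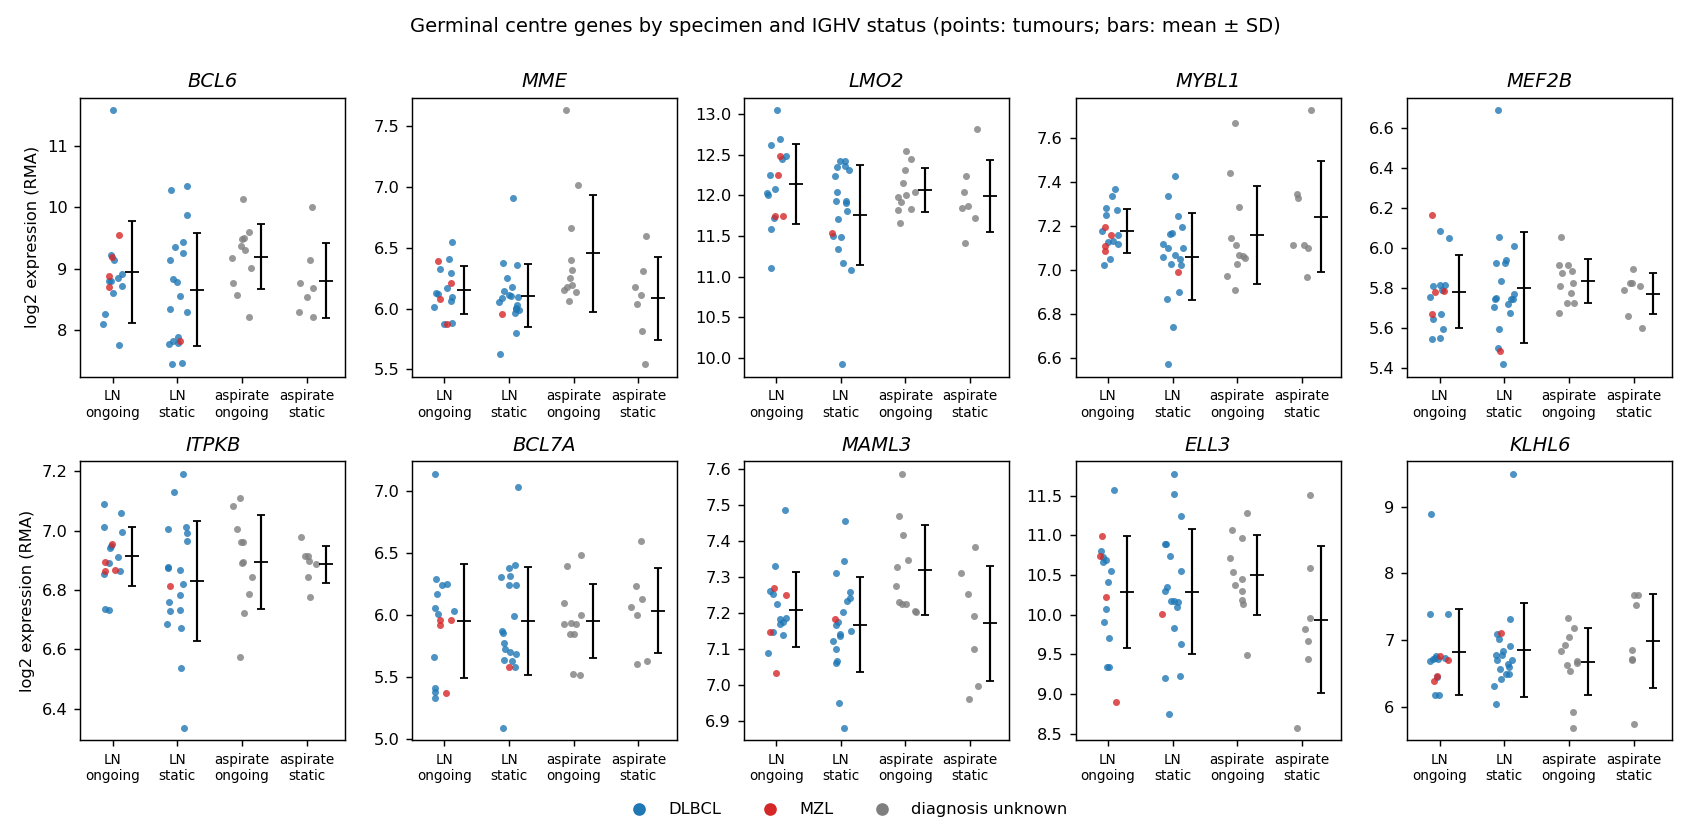
Log2 expression of the 10 genes (vertical axes, 1 panel per gene with its own scale) in lymph node (LN) and aspirate tumours of ongoing or static IGHV status. Each point is a tumour, coloured by diagnosis, and bars give the mean ± SD; the 5 tumours with status ND are not drawn. Groups overlap for all 10 genes, and single tumours stand far above the others for BCL6 (11.58), KLHL6 (9.49 and 8.90), MEF2B (6.69) and MME (7.63).

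IGHV status was compared because ongoing mutation marks cells at the germinal centre stage. No member differed between static and ongoing tumours after adjustment over all genes, by limma with specimen and diagnosis as a stratum (0 of 10 members). In the same fit 0 of 15115 genes, 0%, were called. At an unadjusted p under 0.05, LMO2 and MAML3 passed, 2 of 10 members or 20%, against 7.13% of all genes. In direction, 9 of 10 members were lower in static tumours, against 52.8% of all genes. The median difference of the members was -0.071, against -0.0047 over all genes.

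LMO2 ran from 9.93 through a median of 11.89 to 12.82 in static and from 11.11 through 12.05 to 13.05 in ongoing tumours. The ranges overlapped widely, with 2 of 26 static tumours below every ongoing one and 18 of 26 below the ongoing median. The 5 ND tumours had LMO2 levels of 12.50, 12.20, 11.33, 11.68 and 12.12, inside the range of both groups. The fitted LMO2 difference was -0.29 ± 0.14 (SE), with p = 0.0435 and an adjusted p of 0.697. It was -0.41 in lymph node and -0.08 in aspirates, and -0.22 with the dimmer LMO2 probe set. Adding the proliferation marker mean to the model gave -0.22. Proliferation markers averaged 10.94 ± 0.40 (SD, n = 26) among static tumours, against 10.63 ± 0.44 (n = 27) among ongoing ones.

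BCL6 ran from 7.45 through 8.63 to 10.35 in static and from 7.75 through 8.92 to 11.58 in ongoing tumours. Its levels in the ND tumours were 9.41, 9.59, 9.93, 8.17 and 7.53. The difference, -0.33 ± 0.22, had an adjusted p of 0.762 by limma and a 95% interval from -0.76 to 0.10. It was -0.30 in lymph node and -0.39 in aspirates, and -0.21 with proliferation in the model. MME differed by -0.17 ± 0.09 (adjusted p = 0.719), with -0.058 in lymph node and -0.37 in aspirates. Ongoing aspirates reached 7.63 for MME, while the highest static aspirate was at 6.60.

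MAML3 differed by -0.082 ± 0.038 (p = 0.0368, adjusted p = 0.691), and array weights reduced this to -0.03. ELL3 (-0.22 ± 0.21), ITPKB (-0.06 ± 0.05), MYBL1 (-0.055 ± 0.056), MEF2B (-0.010 ± 0.059) and BCL7A (-0.0021 ± 0.11) were also lower in static tumours by less than 2 SE. KLHL6 was the only member higher in static tumours, by 0.11 ± 0.18, and the sign turned to -0.059 in lymph node DLBCL alone. The difference between specimens in the static minus ongoing contrast was tested as an interaction, and 0 of 10 members passed, against 2 genes or 0.0132% overall. At an unadjusted p under 0.05 the interaction held 0 of 10 members against 9.1% of all genes. Its smallest adjusted p among members, 0.577, belonged to MYBL1, which was lower in static tumours of the lymph node and, at 0.083, higher in static aspirates.

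Specimen type was compared next. No member passed, 0 of 10, against 18 genes or 0.119% of all genes in the limma fit. MME was the single member at an unadjusted p under 0.05, 1 of 10 or 10%, against 11.8% of all genes. It ran from 5.54 through 6.19 to 7.63 in aspirates and from 5.63 through 6.09 to 6.91 in lymph node. Of 19 aspirates, 2 were above every lymph node sample and 1 was below every lymph node sample. The lower of the 2, ongoing 7 (7.02), was the array least like the others. The MME difference was 0.20 ± 0.09 with an adjusted p of 0.347. By direction, 9 of 10 members were higher in aspirates, against 46.9% of all genes, with KLHL6 the exception at -0.016 ± 0.17. The median member difference was 0.075, against -0.0063 over all genes. MAML3 (0.069 ± 0.038, adjusted p = 0.492) and MYBL1 (0.081 ± 0.052, adjusted p = 0.568) followed MME in order of p.

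Diagnosis could be compared in lymph node only. None of the 10 members differed between MZL and DLBCL, where 0% of all genes were called by limma. No member reached an unadjusted p under 0.05 either, against 1.16% of all genes, and 7 of 10 were lower in MZL against 53.9%. BCL6 ran from 7.82 through 9.19 to 9.93 in the 7 MZL tumours and from 7.45 through 8.80 to 11.58 in the 32 DLBCL tumours. That difference, 0.28 ± 0.36, had a 95% interval from -0.42 to 0.98, so the arrays did not separate a higher from a lower BCL6 level in MZL. LMO2 had means of 11.94 ± 0.47 (SD, n = 7) and 11.93 ± 0.60 (n = 32), a difference of 0.0083 ± 0.24 (SE). ELL3, at 10.21 ± 0.67 and 10.24 ± 0.79, differed by -0.03 ± 0.31. KLHL6 ran from 6.39 to 7.10 in the 7 MZL and from 6.04 to 9.49 in the 32 DLBCL tumours, and this difference in spread was not tested.

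Outcome was set against each member in Cox models stratified by specimen. Progression-free survival (PFS) was known for 55 dogs with 47 events, and overall survival (OS) for 56 dogs with 41 events. Hazard ratios are given per SD of the member over 58 arrays, where a value below 1 means fewer events at higher levels. For PFS 0 of 10 members and 0% of all genes passed after adjustment, and for OS 0 of 10 members against 1 gene or 0.00662%. MYBL1 was the single member at an unadjusted p under 0.05 in each, 1 of 10, against 2.83% of all genes for PFS and 3.99% for OS.

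MYBL1 had a PFS hazard ratio of 0.70 (95% interval 0.49 to 0.99, p = 0.0426, adjusted p = 1.00 over all genes). The value was 0.60 in lymph node and 0.77 in aspirates. For OS it was 0.67 (0.46 to 0.97, p = 0.0351, adjusted p = 1.00), with 0.76 in lymph node and 0.56 in aspirates. With proliferation in the model the MYBL1 values were 0.56 for PFS and 0.53 for OS. Per log2 unit, which is most of the 1.15 between its extremes, the OS ratio was 0.117 (0.0161 to 0.854). The second highest MYBL1 level, 7.67, came from ongoing 7, the array least like the others. Across 58 arrays MYBL1 and the 3' minus 5' difference had r = 0.25, and -0.27 without the 2 arrays above 1.

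LMO2 had a PFS hazard ratio of 0.73 (0.51 to 1.04, p = 0.0804, adjusted p = 1.00). In lymph node it was 0.64 (0.42 to 0.95, adjusted p = 0.848) and in aspirates 1.10 (0.53 to 2.25), and these intervals overlap. For OS the LMO2 value was 0.82 (0.59 to 1.15). ELL3 lay on the other side of 1, at 1.17 (0.84 to 1.63) for PFS and 1.37 (0.95 to 1.97) for OS, with 1.60 (1.02 to 2.52) for PFS in lymph node DLBCL and 0.76 (0.44 to 1.31) in aspirates. The ELL3 value in lymph node DLBCL had a Cox score test p of 0.0402 before adjustment. No member had an adjusted p below 0.848 for PFS in any setting. BCL6 was at 0.82 (0.55 to 1.21) for PFS and 0.75 (0.51 to 1.11) for OS. The other 6 members lay between 0.94 and 1.14 for PFS and between 1.02 and 1.19 for OS, with intervals that included 1. For all genes, log hazard ratios per log2 unit were approximated from the score test, without a full fit. Their median was -0.17 over the members against 0.0056 over all genes for PFS, and 0.15 against -0.042 for OS.

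**Figure D2:**
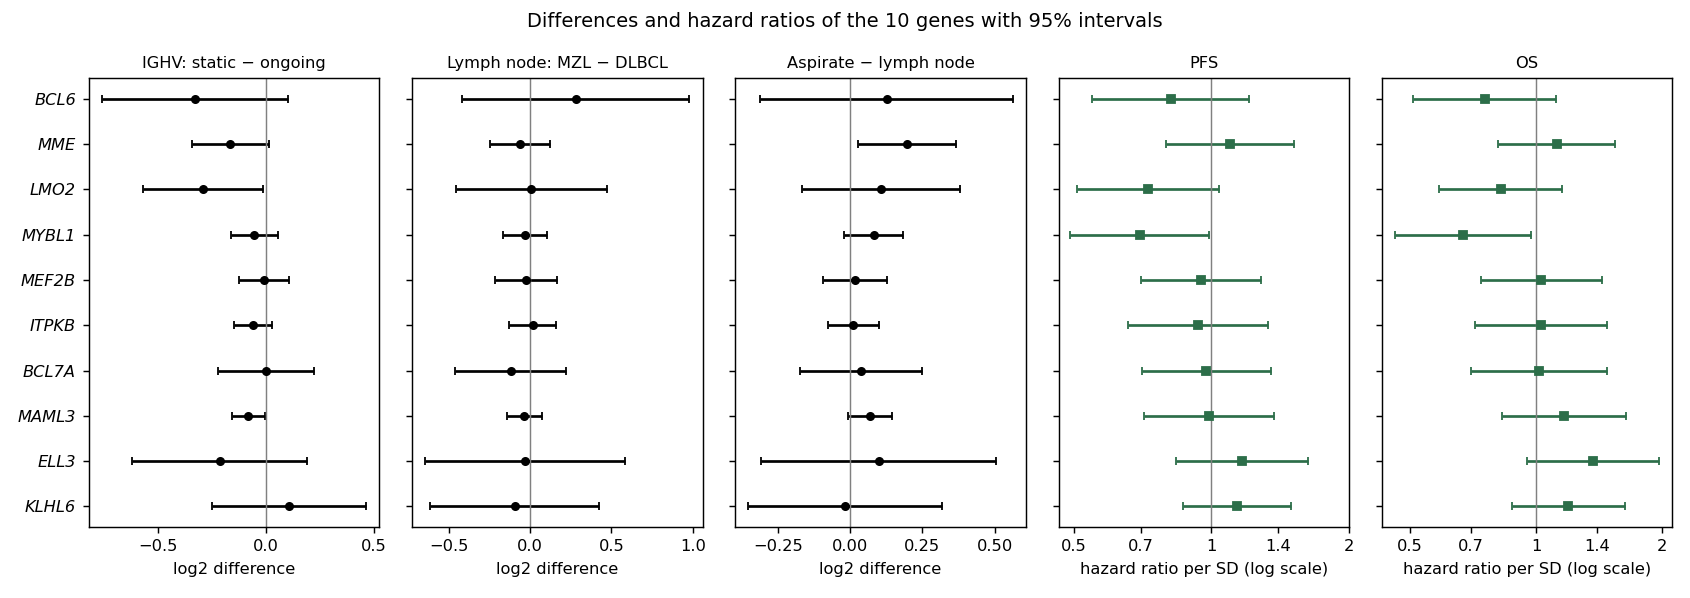
Log2 differences in 3 comparisons (left panels, horizontal axes in log2 units) and hazard ratios per SD for PFS and OS (right panels, log axes) for each gene, with 95% intervals as bars. Intervals exclude 0 only for LMO2 and MAML3 by IGHV status and MME by specimen, and exclude 1 only for MYBL1, before any adjustment over genes.

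Whether the genes rose and fell together from tumour to tumour was asked for all 45 pairs, after the means of the 3 strata (lymph node DLBCL, lymph node MZL, aspirate) were removed. All pairs share the same arrays and normalization. The median Pearson r was 0.063, 26 of 45 pairs were above 0, and 28 of 45 had the same sign in lymph node and in aspirates. Counts of genes that tracked a member at an adjusted p under 0.05, in limma regressions of every other gene on it, differed widely. They made up 0.285% of genes for BCL6, 1.38% for MME, 0.0198% for LMO2, 3.04% for MYBL1, 0.86% for MEF2B, 21.7% for ITPKB, 15.7% for BCL7A, 11.7% for MAML3, 0.0132% for ELL3 and 9.31% for KLHL6. One of 45 member pairs passed in both directions of regression, ITPKB with MAML3, while 2 pairs passed among the 39 lymph node tumours, 0 among the 19 aspirates and 0 without the 2 tumours farthest from each median.

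ITPKB and MAML3 had r = 0.53 (Spearman rho = 0.44, permutation p = 5e-05, limma adjusted p = 0.00484 over all genes). The value was 0.66 in lymph node and 0.26 in aspirates, and 0.39 without the 2 tumours farthest from the ITPKB median. Static 6 was the lowest tumour for both genes (6.34 and 6.88) and static 9 the second lowest for both (6.54 and 6.95). Each gene tracked over 1 in 10 of all genes, so the pair was 404th in order of r among genes set against ITPKB. Both have small ranges, so this relation concerns differences of less than 1 on the log2 scale.

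BCL6 and LMO2, the repressor and the scaffold, had r = 0.46 (rho = 0.32, permutation p = 0.00091, limma adjusted p = 0.270). LMO2 was 37th among all genes in order of r with BCL6. The relation was 0.48 in lymph node and 0.40 in aspirates. It was 0.39 without the 2 tumours farthest from the BCL6 median, and 0.31 without the 2 farthest from the LMO2 median. The top of both genes was 1 tumour, ongoing 2, and static 11 was lowest for LMO2 and second lowest for BCL6 (7.47). MEF2B and ELL3 had r = 0.39 (rho = 0.36, permutation p = 0.0029, limma adjusted p = 0.326), with 0.47 in lymph node and 0.12 in aspirates, and 0.35 without the 2 tumours farthest from the MEF2B median. MEF2B and BCL6, activator and target, had r = 0.29 (rho = 0.17, permutation p = 0.0448, limma adjusted p = 0.360), with 0.26 in lymph node and 0.48 in aspirates. That value was 0.25 without the 2 tumours farthest from the BCL6 median, and 0.18 without the 2 farthest from the MEF2B median. Over 58 tumours MYBL1 and MME had low values with every other member, from -0.13 (ELL3) to 0.15 (BCL6) for MYBL1 and from -0.23 (BCL7A) to 0.17 (BCL6) for MME. LMO2 with MYBL1 was at 0.20 in lymph node and -0.53 in aspirates, and the difference between specimens was not tested.

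**Figure D3:**
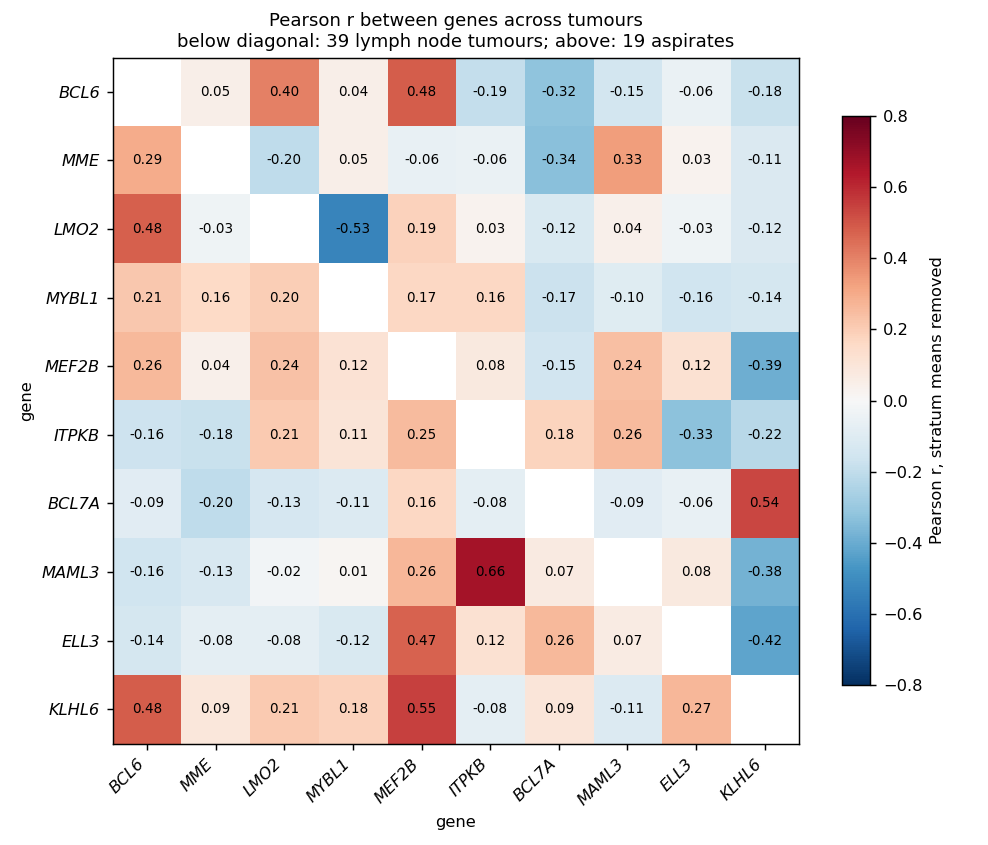
Pearson r between the 10 genes across tumours, with stratum means removed; both axes list the genes, cells below the diagonal are 39 lymph node tumours and cells above it 19 aspirates. ITPKB with MAML3 is highest below the diagonal (0.66), while MEF2B with KLHL6 is 0.55 there and -0.39 above it.

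The lymph node DLBCL tumours static 3 and ongoing 2 stood at the extremes of several of these relations. Static 3 was highest of 58 for KLHL6 (9.49) and MEF2B (6.69) and 3rd highest for BCL6 (10.28) and ELL3 (11.53). Ongoing 2 was highest for BCL6 (11.58) and LMO2 (13.05), 2nd for KLHL6 (8.90), 3rd for MEF2B (6.09) and 5th for MYBL1 (7.37), but 2nd lowest for BCL7A (5.33). These were the 2 tumours farthest from the KLHL6 median and were taken as a pair for that, after values were seen. Their extreme KLHL6 levels were thus set by the choice. They also shared high BCL6 and MEF2B, and they had opposite IGHV labels.

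With these tumours MEF2B and KLHL6 had r = 0.37 (rho = -0.04, permutation p = 0.0183, limma adjusted p = 0.143), and without them r = -0.17. BCL6 and KLHL6 went from 0.32 (rho = 0.10, permutation p = 0.0232, limma adjusted p = 0.284) to -0.09, and BCL6 and MEF2B from 0.29 to 0.05. In aspirates, which hold neither tumour, MEF2B with KLHL6 was at -0.39 and BCL6 with KLHL6 at -0.18. The 2 tumours removed are the most extreme for KLHL6 itself, and these relations of KLHL6 rest on them. BCL6 with LMO2 stayed at 0.36 and ITPKB with MAML3 at 0.53 without them. BCL7A with KLHL6 moved the other way, from 0.20 (rho = 0.41, permutation p = 0.168) to 0.46. Over all genes, 1407 tracked KLHL6 with these tumours, and more did so without them.

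The levels of 6 further genes in this pair of tumours are given as a description. They were picked by hand after values were seen, from genes that tracked KLHL6 or BCL6 over the 58 tumours, relations that these tumours enter, so their levels are no independent support. S1PR2, the receptor that keeps B cells inside the germinal centre, was at 8.81 in static 3 (highest of 58) and 7.88 in ongoing 2 (5th), against a median of 7.07. FOXO1, a factor of the dark zone, was at 11.70 (highest) and 10.62 (6th), against a median of 10.03. STAP1, a signalling adaptor of B cells, was at 7.69 (2nd lowest) and 6.86 (lowest), against a median of 10.12. GFI1, a zinc finger repressor, and BCAR3, an adaptor protein, were 2nd highest in static 3 (8.50 and 10.49) and highest in ongoing 2 (8.59 and 10.51), against medians of 7.05 and 6.99. NFKB1, a subunit of NF-kappa-B, was at 11.25 in static 3 (4th highest) and 11.86 in ongoing 2 (highest), against a median of 10.77. Neither array was among those of low correlation or high 3' minus 5' difference. The B-cell marker mean was highest of 58 in static 3 (11.61, median 10.80) and near the median in ongoing 2 (10.70), whose plasma cell marker mean was highest (10.19, median 9.47). The part of cell content in these levels was not tested.

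**Figure D4:**
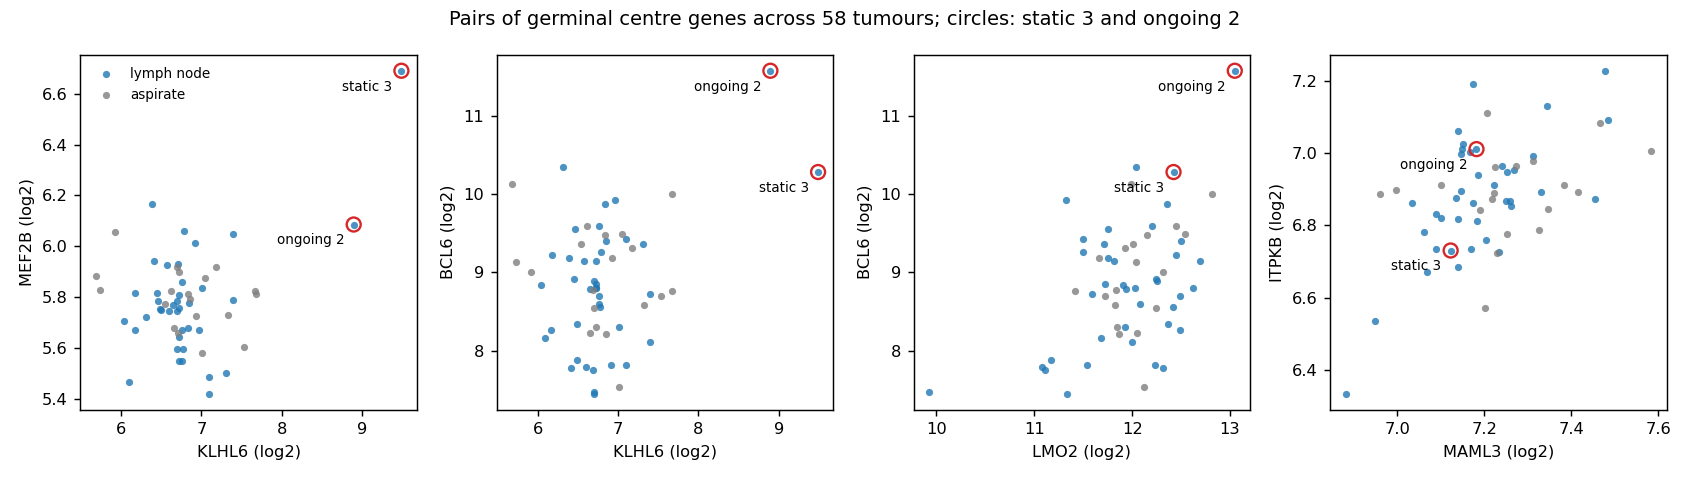
Log2 levels of 4 pairs of genes in 58 tumours; each point is a tumour, blue for lymph node and grey for aspirates, and red circles mark static 3 and ongoing 2. In the KLHL6 panels the circled tumours lie far right of the rest, at 9.49 and 8.90 against 7.67 or less, while LMO2 with BCL6 and MAML3 with ITPKB show a slope in the other tumours too.

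Markers of the cell types that a node can hold were set against each member, 120 relations in all, of which 5 had a Benjamini-Hochberg adjusted permutation p under 0.05. MME rose with the mean of 8 fibroblast markers (r = 0.55, rho = 0.45, permutation p = 1e-05, the smallest that these permutations can give, adjusted p = 0.0012). The value was 0.59 in lymph node, 0.62 in aspirates and 0.47 without the 2 tumours farthest from the MME median. MME also rose with 8 endothelial markers (r = 0.52, rho = 0.33, permutation p = 0.00013, adjusted p = 0.0039), at 0.28 in lymph node and 0.81 in aspirates, and 0.30 without those 2 tumours. By ranks this endothelial relation had an adjusted p of 0.154 and did not pass. With the 9 measured B-cell markers MME had r = -0.16. CD10 is also made by stromal cells of many tissues, and the part of stroma in the MME values was not tested. Fibroblast marker means were 6.98 ± 0.39 (SD) in 19 aspirates against 6.93 ± 0.46 in 39 lymph node samples, and endothelial means 7.57 ± 0.24 against 7.43 ± 0.22.

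BCL7A showed the reverse. It rose with the B-cell markers (r = 0.52, rho = 0.51, permutation p = 5e-05, adjusted p = 0.002), at 0.51 in lymph node and 0.56 in aspirates, and 0.47 without the 2 tumours farthest from its median. It fell with endothelial markers (r = -0.55, rho = -0.50, permutation p = 2e-05, adjusted p = 0.0012), at -0.71 in lymph node and -0.15 in aspirates, and -0.44 without those 2 tumours. ITPKB rose with the 4 measured erythroid markers (r = 0.38, rho = 0.43, permutation p = 0.00199, adjusted p = 0.0478, 0.46 without the 2 tumours farthest from its median), at 0.38 in lymph node and 0.48 in aspirates.

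No other relation passed on Pearson's r. BCL7A with fibroblast markers had r = -0.38 (permutation p = 0.00375, adjusted p = 0.0562) and passed by ranks (rho = -0.44, permutation p = 0.0007, adjusted p = 0.0175). It was at -0.52 in lymph node, 0.07 in aspirates and -0.43 without the 2 tumours farthest from the BCL7A median. KLHL6 had r = 0.38 with B-cell markers (permutation p = 0.00318, adjusted p = 0.0545), at 0.28 in lymph node, 0.63 in aspirates and 0.38 without the 2 tumours farthest from its median. LMO2 had r = -0.41 with epithelial markers (permutation p = 0.00278, adjusted p = 0.0545), at -0.50 in lymph node and -0.06 in aspirates, and -0.34 without its 2 farthest tumours. BCL6 was at -0.06 with the B-cell markers and at -0.22 with proliferation. Its largest value was 0.31, with T-cell markers (permutation p = 0.0165, adjusted p = 0.165), at 0.22 in lymph node and 0.52 in aspirates. With follicular helper T-cell markers BCL6 was at 0.28 (permutation p = 0.0221, adjusted p = 0.204), at 0.41 in lymph node and 0.14 in aspirates. The part of T cells in the BCL6 values was not tested. MYBL1, a gene of dividing cells elsewhere, was at 0.27 with proliferation.

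**Figure D5:**
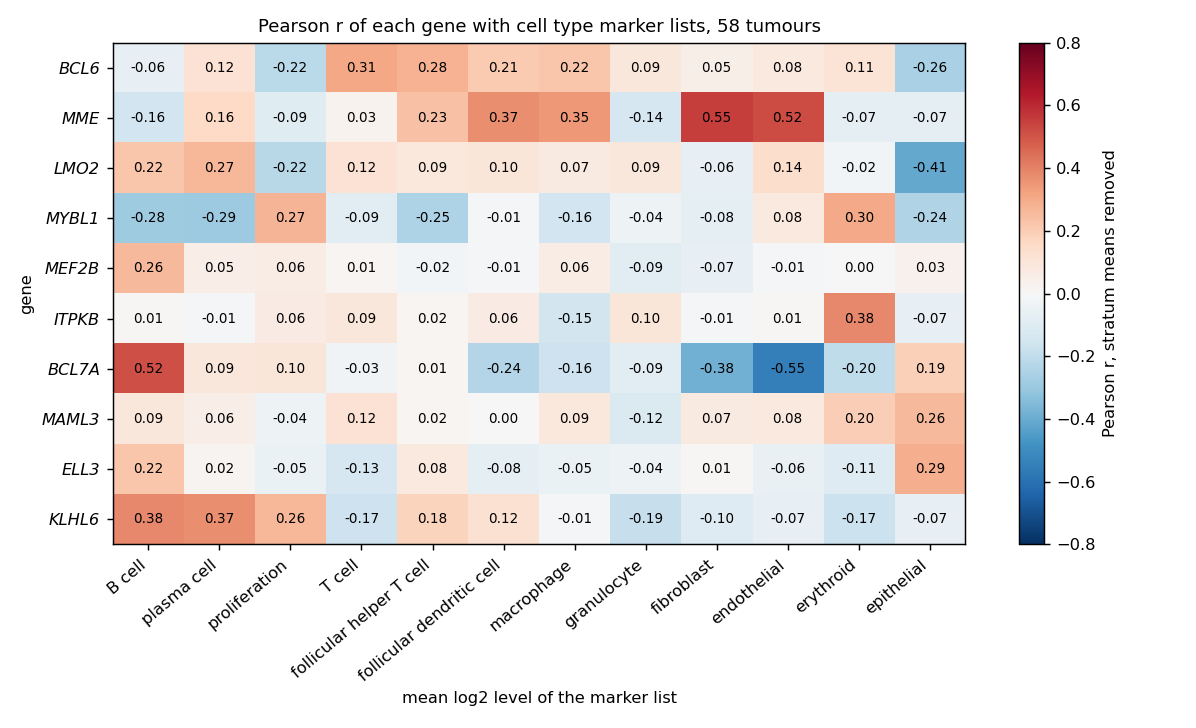
Pearson r of each gene (rows) with the mean log2 level of 12 marker lists (columns) across 58 tumours, with stratum means removed; red is positive and blue negative. MME is red for fibroblast (0.55) and endothelial (0.52) markers, and BCL7A red for B cells (0.52) and blue for endothelial markers (-0.55).

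The wider pathway was read from 6 lists of genes around the set: 23 measured regulators of germinal centre B cells, 14 corepressors and partners of BCL6, 17 genes that BCL6 is known to repress, 12 Notch and mastermind genes, 12 genes of inositol phosphate signalling, and 13 genes of elongation and SWI/SNF. None of their genes passed after adjustment in any of the 6 comparisons, in either direction. By IGHV status 15 of 23 germinal centre regulators were lower in static tumours, with a median of -0.025 against -0.0047 over all genes. The smallest p among them belonged to ID3, an inhibitor of helix-loop-helix factors (-0.29 ± 0.13, adjusted p = 0.686), and GNA13, a G protein below S1PR2 (0.21 ± 0.10, adjusted p = 0.693). Of 17 genes that BCL6 represses, 8 were higher and 9 lower in static tumours, and CHEK1, a DNA damage kinase, had the smallest p (0.26 ± 0.12, adjusted p = 0.691).

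Between aspirates and lymph node, 6 of 23 germinal centre regulators were at an unadjusted p under 0.05, or 26.1%, against 11.8% of all genes. TCF3, the helix-loop-helix factor that ID3 opposes, was lower by -0.29 ± 0.10 in aspirates (adjusted p = 0.194). MYC, which BCL6 represses in most germinal centre cells, was at -0.62 ± 0.17 (adjusted p = 0.0894). In elongation and SWI/SNF genes, 11 of 13 were lower in aspirates and 2 higher, where 46.9% of all genes were higher, with a median of -0.035 against -0.0063 over all genes.

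The same lists were read for genes that tracked a member over 58 tumours. KLHL6 had the most in the germinal centre list, with 5 of 23 rising and 1 falling at a limma adjusted p under 0.05, beside its 9.31% over all genes. Of these, FOXO1 (r = 0.60, adjusted p = 0.0003), S1PR2 (0.59, 0.000623) and IRF8, a factor of B-cell fate (0.47, 0.0101), rose with KLHL6, and STAP1 fell (-0.44, 0.0181). All 5 rising genes were lower without static 3 and ongoing 2, with r from 0.18 (GNA13) to 0.42 (FOXO1), S1PR2 at 0.29 and IRF8 at 0.25, and STAP1 was at 0.03. From the list of genes that BCL6 represses, 3 also rose with KLHL6, namely NFKB1 (0.62, adjusted p = 0.000223), CHEK1 (0.39, 0.0353) and BCL2 (0.38, 0.0411), the last at -0.05 without those tumours. BCOR, a corepressor of BCL6 (0.52, 0.00415), and AKT1 (0.37, 0.049) rose with it too, and SMARCA4 fell (-0.39, 0.0366, and -0.03 without those tumours). MEF2B tracked S1PR2 (r = 0.52, adjusted p = 0.011) and STAP1 (-0.46, 0.0405), at 0.34 and -0.36 without the 2 tumours farthest from the MEF2B median. S1PR2 with MEF2B was at 0.66 in lymph node and 0.01 in aspirates, and STAP1 at -0.51 and -0.23.

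BCL7A tracked 3 of 23 germinal centre regulators, all rising: POU2AF1, a B-cell coactivator (r = 0.52, adjusted p = 0.00221), CXCR5, the follicle homing receptor (0.49, 0.0046), and SPI1 (0.48, 0.00511). It also rose with SMARCC1, a core SWI/SNF subunit (r = 0.57, adjusted p = 0.000617), at 0.65 in lymph node and 0.35 in aspirates. AKT1 (0.57, 0.000718), the corepressor CTBP1 (0.57, 0.000606), S1PR1 (0.36, 0.041) and ITPR2 (0.36, 0.0439) rose with it, and BCL6B (-0.43, 0.0144), CDKN1B (-0.36, 0.0407) and DTX1 (-0.37, 0.0408) fell. These stand beside 15.7% of all genes that tracked BCL7A. MME fell against SMARCC1 (-0.48, adjusted p = 0.0179) and against CDK9, the elongation kinase (-0.48, 0.0187).

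ITPKB, whose 21.7% of tracking genes was the highest share of the set, rose with 3 of 12 Notch genes, NOTCH3 (r = 0.46, adjusted p = 0.00547), DTX1 (0.42, 0.0115) and JAG2 (0.41, 0.0179). It fell against 3 of 12 inositol phosphate genes, ITPR2 and ITPR3, receptors for the substrate of ITPKB (-0.45 and -0.34, adjusted p = 0.00551 and 0.044), and BTK, the kinase upstream (-0.41, 0.012). Among the other lists HDAC7 (0.54, 0.000959), ELL (0.41, 0.0128) and BCL6B (0.38, 0.0229) rose with ITPKB, and ATR (-0.49, 0.00212), FOXO1 (-0.38, 0.0236), CREBBP (-0.36, 0.031) and TNFAIP3 (-0.34, 0.0491) fell. By specimen, DTX1 with ITPKB was at 0.58 in lymph node and -0.02 in aspirates, and ATR at -0.67 and 0.10. The other genes named here with ITPKB had the same sign in both specimens. MAML3 rose with 1 of 12 Notch genes, the ligand JAG1 (0.43, 0.0211), and with 2 of 23 germinal centre regulators, ID3 (0.49, 0.00647) and PAX5 (0.40, 0.0384) beside the 11.7% of all genes that tracked it. BCL7C (0.46, 0.0167) rose with it, and BTK (-0.49, 0.00722), BCOR (-0.37, 0.0405) and ELL2 (-0.36, 0.0459) fell. Over all genes the median slope was 0.129 on ITPKB and 0.131 on MAML3, so rising was the commoner direction with either. ID3 was at 0.26 with MAML3 in lymph node and 0.81 in aspirates. With BCL6, LMO2, MYBL1 and ELL3, no gene of the 6 lists passed. Among the 17 genes it is known to repress, the median slope on BCL6 was 0.044, against -0.0077 over all genes.

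The genes most like each member over 58 tumours, by r after stratum means were removed, were taken 3 to a member. For BCL6 these were GFI1 (r = 0.66, limma adjusted p = 0.000435), GLG1 (0.57, 0.0107) and TFEC (0.56, 0.0107). GFI1 was at 0.69 in lymph node and 0.50 in aspirates, and at 0.49 without the 2 tumours farthest from the BCL6 median. GLG1 was at 0.69, 0.24 and 0.47 in the same order, and TFEC at 0.67, -0.0036 and 0.33. No gene passed with BCL6 without those 2 tumours, 0 against 43 with them. For LMO2 they were KCNA3, a lymphocyte potassium channel (0.64, 0.000923), SRF (0.57, 0.0243) and NFATC2, a factor activated by calcium (0.56, 0.0243). Those 3 were all the genes that passed with LMO2, and KCNA3 was at 0.74 in lymph node against 0.20 in aspirates, while NFATC2 was at 0.53 and 0.75.

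MME had the highest r of any member, with FGL1 (0.81, adjusted p = 3.47e-10), CYP7B1 (0.76) and SGCE (0.75), at 0.70, 0.52 and 0.63 without the 2 tumours farthest from its median. KLHL6 was closest to BCAR3 (0.75), ACSS2 (0.73) and RFTN1, a lipid raft protein of B cells (0.73). Without static 3 and ongoing 2, BCAR3 went to 0.25, while ACSS2 was at 0.60 and RFTN1 at 0.46. MEF2B was closest to A4GALT (0.65), ARSL (0.64) and PIP4K2C (0.64), at 0.33, 0.36 and 0.35 without its 2 farthest tumours. In lymph node these were at 0.70, 0.64 and 0.75, and in aspirates at -0.02, 0.70 and 0.10. MYBL1 was closest to TMEM45B (0.67), CASP2 (0.60) and MRTFB (0.60).

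BCL7A was closest to CYB5RL (0.68), KAT7, a histone acetyltransferase (0.67), and POLDIP2 (0.67). ITPKB was closest to HMX3 (0.73), DDO (0.71) and AGT (0.71), and MAML3 to FOXI3 (0.73), CCSAP (0.67) and CHDH (0.67). HMX3, DDO, AGT, FOXI3, CCSAP and CHDH had SDs of 0.14 to 0.18 over 58 arrays. These lay below 0.25, the median SD of all genes after stratum means were removed, as did those of ITPKB and MAML3. ELL3 stood alone despite its wide range: its closest genes SYNJ1 (0.52), IFNAR1 (0.47) and TLDC2 (0.47) had adjusted p values from 0.0919 to 0.173, and 2 genes in all passed with it.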

How the data were processed

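Total RNA was hybridised to Affymetrix canine arrays. For each of 58 arrays the authors deposited log2 levels of 43035 probe sets, computed by RMA in Affymetrix Expression Console, per the submitters' processing notes; no version, batch or genome build is given in the sources used here. RMA corrects background and normalizes arrays to a common distribution, which can understate shifts shared by most genes. The platform annotation gave 29254 probe sets a single symbol, and the brightest probe set of each symbol gave 15115 genes, with no filter. A RefSeq gene table (assembly UU_Cfam_GSD_1.0) served for names only, and 8 of 10 members matched it by gene ID.

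Fits used limma 3.58.1 in R 4.3.3 (lmFit, eBayes, two-sided), and p-values were adjusted by Benjamini-Hochberg across the 15115 genes (threshold 0.05). IGHV status was fitted over 53 dogs with a stratum of specimen and diagnosis. Cox score tests (Breslow ties) used survival 3.8.3. Indicator 1 was taken to mark an event, because PFS and OS times were equal in 8 of 8 dogs whose PFS indicator was 0; the unit of time is not given. Correlations used 100000 two-sided permutations within strata. Fits were tested on simulated data. Alternatives covered probe sets, samples, covariates, tests, filter and normalization. Each sample is labelled as a separate dog; the number of arrays limits precision. Tumours are named by IGHV status and accession order.

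The members are named by a rule that uses no measured value, but they and the gene lists were chosen with earlier results of these data known. Named genes were all members, the 3 genes of highest r with each, and, of each list, up to 4 genes past the threshold in a comparison or, where none passed, the 2 of smallest p. Where none passed, the text names only some of those, and it names 5 genes of 1 list with KLHL6; which ones was chosen after values were seen.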

Additional observations from a re-analysis of the deposited data

Results flagged for a closer look

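Of 40 groups of 4 to 10 tumours checked gene by gene, 2 held a value far from the others, and chance alone gives about 1 in 20. BCL7A in the 4 ongoing MZL tumours of the lymph node had a lowest value of 5.37, in ongoing 19, against 5.91 for the nearest of the others. The 1 static MZL tumour was at 5.58. KLHL6 in the 5 ND tumours had a lowest value of 6.09, in ND 4, a lymph node DLBCL, against 6.77 for the nearest. The ND tumours were of mixed specimen and diagnosis. The value of ND 4 lay inside the KLHL6 range of the 32 lymph node DLBCL tumours, 6.04 to 9.49. ND 4 also had the lowest ELL3 level of all 58 tumours (8.43) and the second lowest MEF2B level (5.47).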

How the results depend on the processing

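No member passed the threshold in any of the 6 comparisons under any alternative run that tested it, with adjusted p values from 0.243 to 1. The run without the 25% of genes with the lowest means left out MME, MEF2B and BCL7A, which were therefore not tested in it. Of the member values, 125 of 138 for IGHV status, 47 of 47 for the interaction, 133 of 148 for MZL, 83 of 88 for aspirates, 74 of 87 for PFS and 76 of 87 for OS kept their direction. Signs turned mostly where a value was near 0; the cause was not tested.

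By IGHV status BCL7A turned to 0.0823 in aspirates, 0.0219 without a stratum, 0.0019 after quantile normalization, 0.0837 with B-cell markers in the model, 0.00345 without the 2 arrays of lowest correlation and 0.0127 without those of high 3' minus 5' difference. KLHL6 turned to -0.0586 in lymph node DLBCL, -0.000764 in lymph node and -0.0178 with proliferation. MEF2B turned to 0.0601 in lymph node DLBCL, 0.0178 in lymph node and 0.0108 with B-cell markers, and MYBL1 to 0.0832 in aspirates.

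For MZL, leave-one-out values ran from -0.0841 to 0.111 for LMO2, from -0.16 to 0.187 for ELL3, from -0.0926 to 0.0201 for MEF2B and from -0.00578 to 0.0296 for ITPKB. LMO2 was -0.00716 by the mean of its probe sets, -0.0227 by the dimmer, -0.00395 after quantile normalization, -0.00538 with T-cell markers and -0.0163 without arrays of high 3' minus 5' difference. ELL3 was 0.0642 with B-cell and 0.0581 with T-cell markers, and MEF2B 0.00917 with B-cell markers. For aspirates, BCL7A was -0.0252 and MEF2B -0.000621 with B-cell markers, LMO2 -0.0259 by the dimmer probe set, and KLHL6 0.113 without the 2 arrays of lowest correlation and 0.0374 without those of high 3' minus 5' difference.

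PFS hazard ratios per SD crossed 1 for MAML3 (1.27 in lymph node, 1.32 in lymph node DLBCL, 1.02 by ranks, 1.05 with proliferation, 1.03 without the 2 arrays of lowest correlation), MEF2B (1.15 in lymph node DLBCL), ITPKB (1.03 by ranks), MME (0.97 without strata), BCL7A (1.01 in aspirates, 1.02 without strata), and, in aspirates, ELL3 (0.761), KLHL6 (0.92) and LMO2 (1.10). For OS, BCL7A was 0.976 in lymph node, 0.94 by ranks, 0.973 with proliferation and 0.979 without the 2 arrays of lowest correlation. MEF2B was 0.588 in aspirates, 0.986 without strata, 0.981 by ranks and 0.999 with proliferation, and in aspirates ITPKB was 0.842, KLHL6 0.906 and MAML3 0.915.

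Counts over all genes moved too. IGHV status called 6 genes in aspirates, and the interaction 1 after quantile normalization or without the 2 arrays of lowest correlation. Specimen called 93 over each probe set, 58 by the mean of probe sets, 10 without either set of doubted arrays and 6 against lymph node DLBCL. PFS called 1 gene in lymph node or by the mean of probe sets. OS called 3 in lymph node, 2 in lymph node DLBCL or by the mean of probe sets, and 0 in aspirates, without strata, by ranks or without the 25% of genes with the lowest means.

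Genes tracking a member in lymph node, in aspirates and without the 2 farthest tumours numbered 25, 0 and 0 for BCL6, 12, 41 and 20 for MME, 0, 5 and 0 for MYBL1, 357, 0 and 1 for MEF2B, 493, 30 and 2919 for KLHL6, and 0, 0 and 0 for ELL3. LMO2 had 1 in aspirates, 22 without its 2 farthest tumours and 8 by the mean of probe sets, where ELL3 had 0. BCL7A had 0 in aspirates and 1095 without its 2 farthest tumours, ITPKB 0 in aspirates, and MAML3 268 in lymph node and 82 without its 2 farthest tumours. Member pairs that passed numbered 2 in lymph node, 0 in aspirates and 0 without the 2 farthest tumours. In aspirates r was -0.18 for BCL6 with KLHL6 and -0.39 for MEF2B with KLHL6. Without static 3 and ongoing 2, a setting chosen after the data were seen, they were -0.086 and -0.17. No paired analysis was possible because replicate numbers were given in accession order and only name a tumour.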
